A study of Homo sapiens with 2 samples.

Results

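The 11 metallothionein genes on the array were compared between MDA-MB-231 cells given a miR-544 antagomir and MDA-MB-231 cells given compound 1. MDA-MB-231 is an established line from a human breast cancer that lacks hormone receptors. Members were taken by gene symbol (MT1 or MT2 followed by 1 letter, or MT3 or MT4 alone), with no filter on level, from 14884 genes with a named cluster. They are MT1B, MT1E, MT1F, MT1G, MT1H, MT1L, MT1M, MT1X, MT2A, MT3 and MT4, each with 1 transcript cluster (the set of probes summarised as 1 value). A miR-544 antagomir is an oligonucleotide that blocks this microRNA, and compound 1 is the agent that the study directs at the same microRNA. Each agent was added 24 hours before 5 days of hypoxia below 1% oxygen. Both groups share the hypoxia, and no untreated or normoxic array was used here. Each group was 1 array of pooled RNA, so neither a replicate error nor a p-value can be given, and treatment cannot be told apart from pool or hybridisation. In such bulk RNA, fewer expressing cells and less RNA per cell cannot be told apart either. Values are deposited log2 signals, and each difference is compound 1 minus antagomir. A negative difference thus means a lower signal on the compound 1 array.

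Metallothioneins are small cysteine-rich proteins that bind zinc and copper and buffer free metal in the cell. Their genes are switched on by zinc and cadmium through the transcription factor MTF1, which binds metal response elements in their promoters, and many of them also respond to glucocorticoids, oxidative stress and hypoxia. MT1 and MT2 genes are active in many tissues, MT3 is best known from the brain, where it was described as a growth inhibitory factor, and MT4 from stratified squamous epithelium. MT1L is a transcribed pseudogene. The MT1 genes arose by duplication and are close in sequence. How far probes of one cluster also bind the transcript of another was not tested.

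RefSeq places all 11 members in 1 block on chromosome 16, from MT4 to MT1X. The block holds 16 metallothionein symbols, 11 of them protein-coding genes, and 0 protein-coding genes of another family. MT1A, MT1JP, MT1DP, MT1CP and MT1IP lie in it without a named cluster and are not analysed here. RefSeq promoter entries (GRCh38.p14) were matched for 5 of the 11 members, all on the plus strand of chromosome 16. The 250 bases before each gene start are shown because the element through which MTF1 acts can be read in them. Capitals mark the 7 bases of each metal response element core, spelled TGCACNC or TGCGCNC and searched on both strands. The windows are chr16:56564823-56565072 for MT4, chr16:56608334-56608583 for MT2A, chr16:56651636-56651885 for MT1B, chr16:56669564-56669813 for MT1H and chr16:56682220-56682469 for MT1X.
MT4: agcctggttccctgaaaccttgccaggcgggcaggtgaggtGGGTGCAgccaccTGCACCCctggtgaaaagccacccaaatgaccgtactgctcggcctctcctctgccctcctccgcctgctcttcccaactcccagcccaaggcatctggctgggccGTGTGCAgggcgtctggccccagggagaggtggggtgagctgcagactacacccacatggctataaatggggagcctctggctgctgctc
MT2A: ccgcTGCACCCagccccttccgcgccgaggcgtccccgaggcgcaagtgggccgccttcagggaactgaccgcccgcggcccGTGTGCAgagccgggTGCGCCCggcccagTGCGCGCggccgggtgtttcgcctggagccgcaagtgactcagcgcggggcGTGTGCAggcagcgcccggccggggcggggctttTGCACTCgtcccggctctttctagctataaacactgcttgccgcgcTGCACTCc
MT1B: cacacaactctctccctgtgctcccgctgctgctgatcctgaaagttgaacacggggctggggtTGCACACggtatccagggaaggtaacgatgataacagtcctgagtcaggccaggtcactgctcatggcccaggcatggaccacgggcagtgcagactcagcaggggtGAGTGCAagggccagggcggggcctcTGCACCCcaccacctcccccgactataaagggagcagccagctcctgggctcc
MT1H: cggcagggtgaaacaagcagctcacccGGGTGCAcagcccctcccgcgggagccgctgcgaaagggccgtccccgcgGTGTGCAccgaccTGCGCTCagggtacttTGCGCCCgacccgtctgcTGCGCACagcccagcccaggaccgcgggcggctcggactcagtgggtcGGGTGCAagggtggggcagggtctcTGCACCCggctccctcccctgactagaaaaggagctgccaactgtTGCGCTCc
MT1X: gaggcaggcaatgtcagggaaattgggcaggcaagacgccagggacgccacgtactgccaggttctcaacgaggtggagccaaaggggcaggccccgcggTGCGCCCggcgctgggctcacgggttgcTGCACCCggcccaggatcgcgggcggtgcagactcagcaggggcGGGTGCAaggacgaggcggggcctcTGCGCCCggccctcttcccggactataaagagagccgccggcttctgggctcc

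All 5 windows held 3 or more cores, and 1.58% of the 35114 promoter windows of the same length did so. G and C made up 62.4% to 73.2% of the bases in the 5 windows. The 35114 windows were not matched to them for base composition. MT1H had 8 cores and MT2A had 7, against shares of 0.0171% and 0.0313% of windows with at least as many. MT1X had 4 cores (0.37% of windows), and MT1B and MT4 had 3 each. In MT1B, MT1H and MT1X a core ended 47 bases before the gene start, and in MT2A one ended 48 bases before it. In MT4 the core nearest to the start ended 84 bases before it. None of these cores overlapped another within the 5 windows. The core bound by hypoxia-inducible factors (ACGTG or GCGTG) was found 1 time in MT2A, where it overlapped a metal response element core, and 1 time in MT1X, where it did not; 43.2% of windows held at least 1. The antioxidant response element core (TGACNNNGC) was found 1 time each in MT2A, MT1B and MT1X, and in 10.9% of windows.

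**Figure D1:**
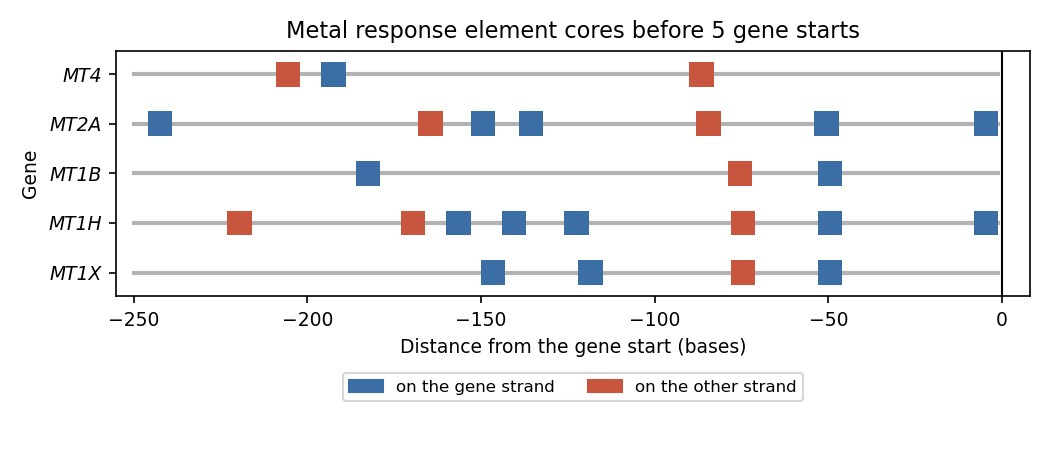
Position of metal response element cores in the 250 bases before the start of 5 metallothionein genes, in bases from the start, coloured by strand. MT1H has 8 cores and MT2A 7, MT1X has 4, and MT1B and MT4 have 3 each.

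Most metallothioneins were lower on the compound 1 array, with a split between members that lay far below the antagomir array and members that lay close to it. The signal was lower for 9 of 11 genes, where 51.5% of all named genes were lower. Their median difference was -0.21, beside -0.0093 over all named genes. Past a log2 difference of 0.32 in size, 5 of 11 were lower and 0 higher, beside 5.77% and 7.05% of all named genes. Past 1.5-fold, 2 of 11 were lower, beside 0.907%, and 0 of 11 passed 2-fold. The 2 were MT1E (1.509-fold) and MT1H (1.501-fold), both close to that cut. The 5 genes past 0.32 lay between -0.59 and -0.49, and the next member, MT2A, was at -0.21. Of these 5, MT1E and MT1X had signals above the entry level of 5.60 that is defined below. The other 3, MT1H, MT1B and MT1G, lay below it on both arrays, where differences spread more among genes.

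**Figure D2:**
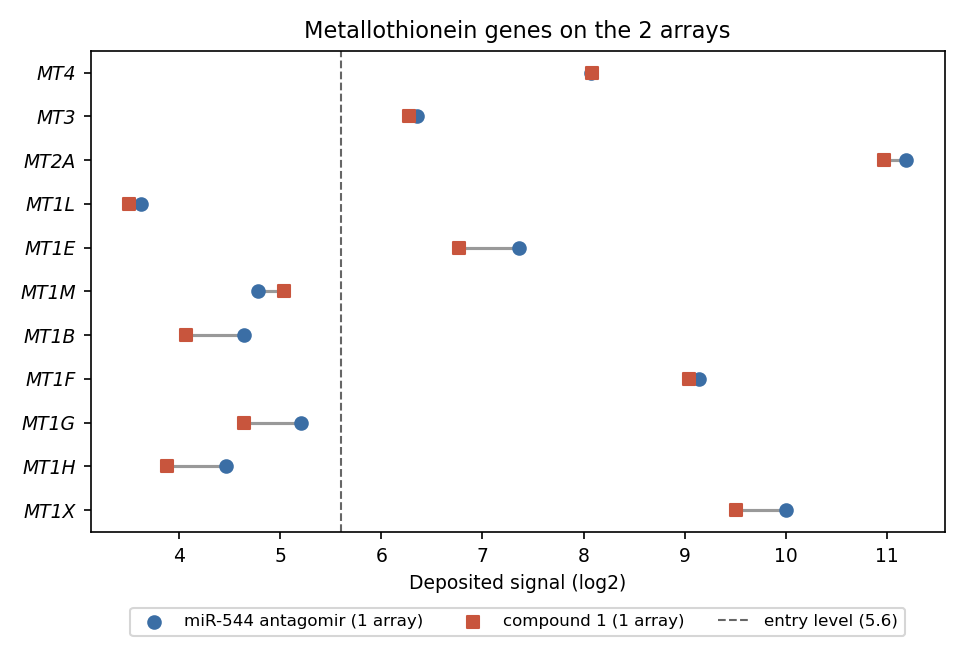
Deposited log2 signal of the 11 metallothionein genes in RefSeq order, with 1 point per array and a dashed line at the entry level of 5.60. The compound 1 point lies to the left of the antagomir point for 9 genes, and to the right for MT1M and, by 0.0084, for MT4.

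The spread of differences among genes depends on level, so each member was also set among the 744 or 745 named genes of its own level bin (20 bins of equal size). The robust SD of differences fell from 0.323 in the lowest bin to 0.106 in the highest. An entry level of 5.60, the 50th percentile of cluster means, was used to part higher from lower signals. It is not a detection call, so a signal above it does not show that a gene is expressed. On both arrays 6 of the 11 members reached it, and the other 5 lay below it on both. Signals of different clusters rest on different probes, so no order of abundance among the members was drawn from them.

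MT1E, an MT1 isoform gene, had the lowest difference of the family as deposited, and MT1H, MT1B and MT1G lay below it after quantile normalization or cyclic loess. Its signal was 7.36 with the antagomir and 6.77 with compound 1, a difference of -0.59 (1.51-fold). Of the 744 genes in its level bin, 2 had a difference this low, MT1E included, and the robust SD there was 0.189.

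MT1X was at 10.004 with the antagomir and 9.51 with compound 1, a difference of -0.49 (1.41-fold). In its bin 5 of 744 genes were at or below this difference, and the robust SD was 0.127. MT1E and MT1X were the only 2 of the 6 members above the entry level that were lower past 0.32, where 5.27% of the named genes above that level did.

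MT2A encodes the main MT2 protein. It was at 11.19 and 10.97, a difference of -0.21 (1.16-fold), and 89 of 744 genes in its bin were at or below that. MT1F was at 9.15 and 9.04, and its difference of -0.10 was smaller than the robust SD of 0.13 in its bin, where 40.9% of genes lay at or below it. These high-signal members were lower, like MT1E and MT1X, but so was the median gene of their level bins. That bin median was -0.076 for MT2A and -0.071 for MT1F as deposited. MT1F lay well within the spread of genes at its level.

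MT3 and MT4, the members with a narrower known tissue range, differed little. MT3 was at 6.35 and 6.28, a difference of -0.075 beside a robust SD of 0.191. MT4 was at 8.07 and 8.08, a difference of 0.0084 that became -0.021 after median centring of the arrays. Both differences were within 1 robust SD of their level bins.

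The other 5 members had signals below the entry level on both arrays, where differences spread most and where genes as a whole lay toward the compound 1 side (median 0.069). MT1H was at 4.46 with the antagomir and 3.88 with compound 1, a difference of -0.59. MT1B was at 4.64 and 4.07 (-0.57), and MT1G was at 5.21 and 4.64 (-0.57). In their own bins, 1.61%, 3.23% and 1.75% of genes lay at or below these differences, with robust SDs of 0.283, 0.258 and 0.235. Of these 5 members 3 were lower past 0.32, as were 7.13% of the named genes below the entry level, while 16.6% of those genes were higher past 0.32.

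MT1M was higher on the compound 1 array. Its signal was 4.78 with the antagomir and 5.04 with compound 1, a difference of 0.26, and 21.1% of genes in its bin were at or above that. The pseudogene MT1L was at 3.62 and 3.51, a difference of -0.11 beside a robust SD of 0.323. Neither difference passed 0.32.

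**Figure D3:**
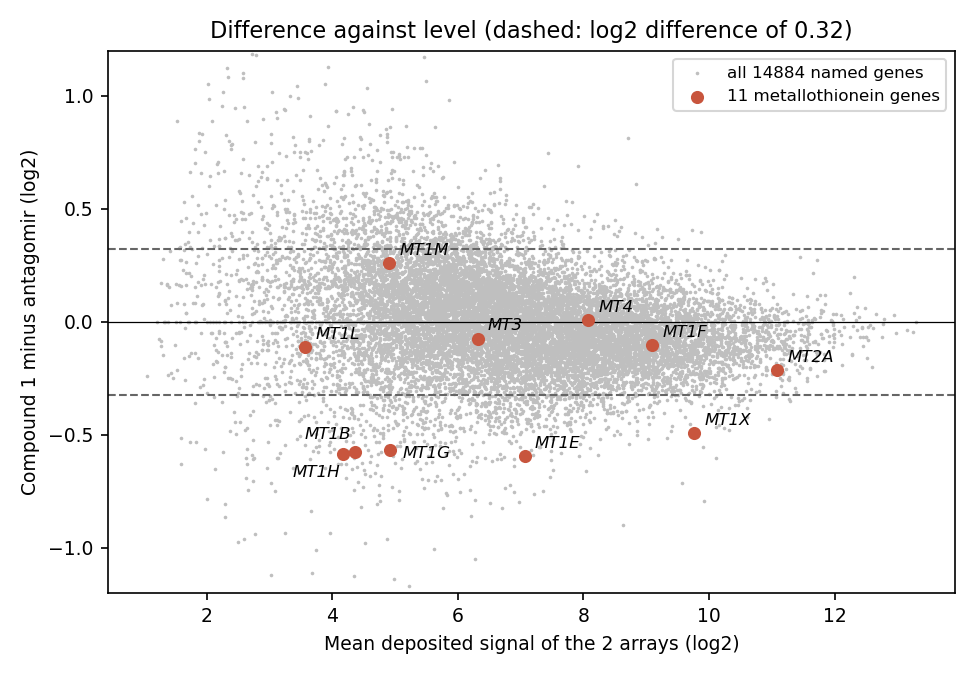
Difference (compound 1 minus antagomir, log2) against the mean log2 signal of both arrays for 14884 named genes in grey and 11 metallothionein genes in colour; 21 genes beyond 1.2 on the vertical axis are not shown. MT1E and MT1X lie at the lower edge of the grey points at their level, whereas MT1F, MT3 and MT4 lie inside them.

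Rescaling the arrays left this split in place. After median centring, quantile normalization and cyclic loess the same 5 genes were at -0.42 or lower. The family median was -0.24, -0.17 and -0.20 in that order. MT1X was at -0.42 after either quantile normalization or cyclic loess. After the same scalings MT2A was at -0.14 in both, and MT1F at -0.026 and -0.032. MT1B, MT1G and MT1H lay further from 0 there than as deposited, between -0.67 and -0.61. The genes past 1.5-fold (0.585 in log2) thus changed with the scaling. MT1E, at -0.567 and -0.576, no longer passed that cut, while MT1B and MT1G did. After median centring MT1B and MT1G passed it as well as MT1E and MT1H.

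**Figure D4:**
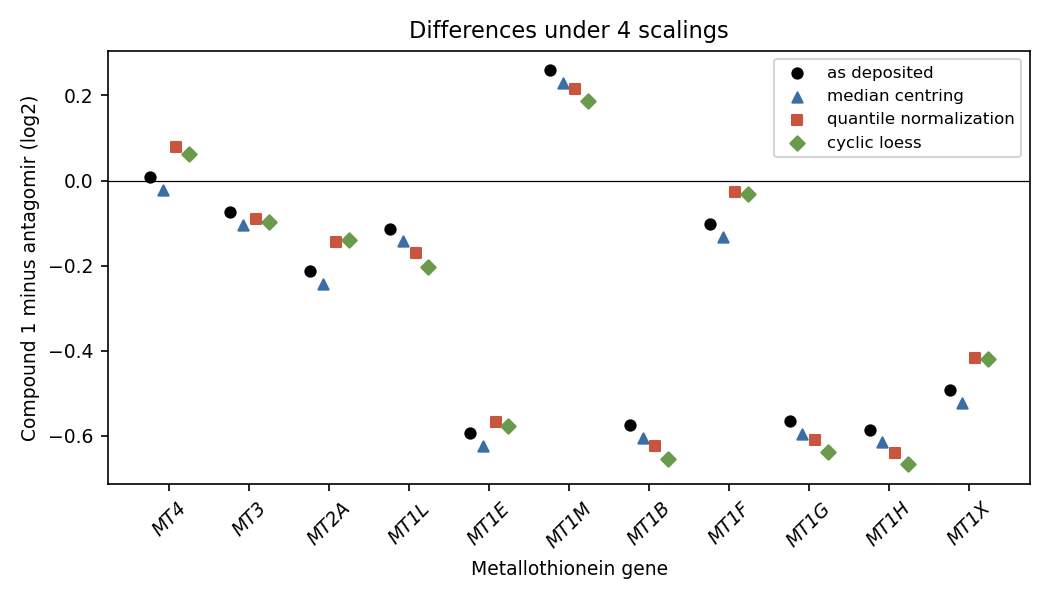
Difference (compound 1 minus antagomir, log2) of each metallothionein gene as deposited and after 3 scalings, with genes in RefSeq order. MT1E, MT1B, MT1G, MT1H and MT1X stay at -0.42 or lower in all 4, and MT4 turns sign after median centring.

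The genes beside the block on chromosome 16 were looked up by position. Of the 10 nearest protein-coding genes on each side, 11 of the 20 had a named cluster. Their median difference was -0.088 (-0.015 after quantile normalization or cyclic loess), 7 were lower and 4 higher, and 0 of the 11 passed 0.32 in either direction, as deposited or after any of the 3 scalings. With 5.77% of all named genes lower and 7.05% higher past 0.32, so small a count among 11 genes is near the background. The nearest on each side, chosen by position, were BBS2, a Bardet-Biedl syndrome gene, at 8.68 and 8.74 (0.058), and NUP93, a nuclear pore gene, at 9.41 and 9.25 (-0.16). The extremes, picked after their values were seen, were RSPRY1 at -0.21 and the carboxylesterase gene CES1 at 0.28. Within the block the 5 lower genes were not all adjacent: MT1M (0.26) lies between MT1E and MT1B, and MT1F (-0.10) between MT1B and MT1G.

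**Figure D5:**
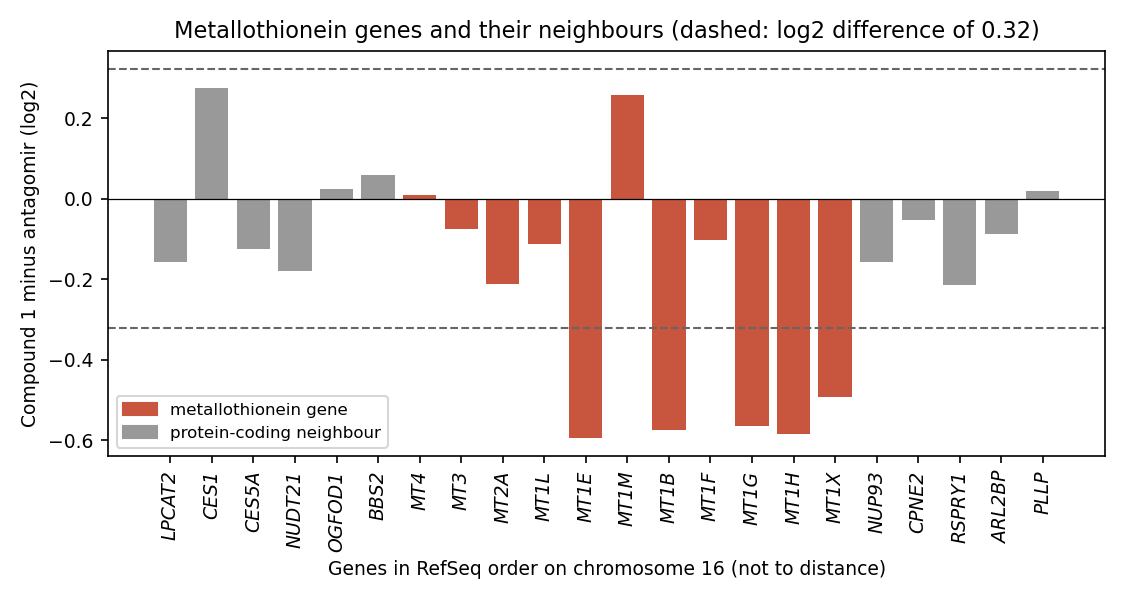
Difference (compound 1 minus antagomir, log2) of 11 metallothionein genes and 11 protein-coding neighbours, in RefSeq order on chromosome 16 and not to distance, with dashed lines at 0.32 in either direction. The neighbours lie between -0.21 and 0.28, and 5 metallothionein genes lie past the lower line.

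Promoter core counts and differences did not follow 1 order in the 5 genes with both. MT1H, with 8 cores, was at -0.59 and MT1B, with 3, was at -0.57. MT2A, with 7 cores, was at -0.21, and MT4, with 3, was at 0.0084. MT1X, with 4, was at -0.49. MT1H and MT1B lay below the entry level on both arrays, so their differences rest on low signals. Whether the number of cores bears on the differences was not tested.

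The gene of the metal-sensing factor MTF1 was higher on the compound 1 array. Its signal was 8.48 with the antagomir and 8.71 with compound 1, a difference of 0.23 beside a robust SD of 0.134 in its bin, and 0.29 after quantile normalization or cyclic loess. The other 3 genes listed under metal-responsive transcription, USF1, SP1 and MTF2, were lower, from USF1 at -0.16 to MTF2 at -0.047. MTF2 turned to 0.012 after quantile normalization and 0.015 after cyclic loess. Whether these factors act on metallothionein genes in these cells was not tested. None of these 4 passed 0.32.

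Among genes that handle copper, 6 of 14 listed were measured (higher signal at or above 5.60), with 5 lower and 1 higher and a median of -0.13, beside 57.2% lower and a median of -0.035 over the 10887 measured genes. COMMD1, a regulator of copper export, was lowest at -0.38 (6.20 and 5.82), and SCO2, which helps deliver copper to cytochrome c oxidase, was highest at 0.14. Past 0.32, 2 of the 6 were lower, beside 5.27% of measured genes: COMMD1 and the cytochrome c oxidase assembly gene COX11 (-0.34, named after its value was seen; within 0.32 at -0.29 once quantile normalized and -0.30 once loess scaled). Of 9 listed zinc exporters (SLC30) and 14 zinc importers (SLC39), 0 had a named cluster, so zinc transport is not analysed here.

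As deposited, other inducible programmes that can include metallothioneins had medians smaller in size than the -0.16 of the 6 metallothioneins at or above the entry level. The median over the 10887 measured genes was -0.035. For those 6 members the median was not computed after scaling, so this comparison holds for the deposited values only. The part of these programmes in the metallothionein differences was not tested. Targets of the oxidative stress factor NRF2 (6 of 18 measured) had 3 lower and 3 higher, with a median of -0.012 that turned to 0.053 after quantile normalization. The heme oxygenase gene HMOX1, which heavy metals also induce, was highest at 0.29 (7.78 and 8.07; 0.35 after quantile normalization), and the pentose phosphate gene TALDO1 lowest at -0.20. Heat shock genes (6 of 10 measured) ran from -0.12 for HSPA1L to 0.030 for HSPA1A, with 4 lower and 2 higher (3 and 3 after quantile normalization); their median of -0.044 turned to 0.020 after quantile normalization. Glucocorticoid receptor targets (7 of 11 measured) had 3 lower and 4 higher, from KLF9 at -0.22 to TFCP2L1 at 0.33, the 1 gene of these 3 lists higher past 0.32 as deposited (0.30 after centring or quantile normalization); their median of 0.025 turned to -0.0046 after median centring. Past 0.32, 0 of the 19 measured genes of these 3 lists were lower in any scaling, which is near the 5.27% of all measured genes.

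Markers of the cell line and of other cell types were listed to set the arrays beside their label. Of 7 MDA-MB-231 markers with a named cluster, 6 lay at or above the entry level, among them the receptor tyrosine kinase gene AXL at 12.78 and 12.77 and vimentin (VIM) at 10.61 and 10.49, while S100A4 lay below it. Of 10 luminal epithelial markers 8 lay at or above it on at least 1 array, FOXA1 (5.41 and 5.66) only with compound 1. Among the 8 were KRT18 at 11.28 and 11.18, XBP1 at 9.37 and 9.35, and KRT19 at 9.04 and 8.78. GATA3 at 7.27 and 7.44 and EPCAM at 6.91 and 7.05 were also among them. The hormone receptor genes ESR1 (5.31 and 5.21) and PGR (4.77 on both) lay below it on both arrays. The measured MDA-MB-231 markers differed by -0.13 to 0.020 and the luminal ones by -0.26 (KRT19) to 0.25 (FOXA1). Leukocyte markers had 1 measured of 3 (CD68), endothelial markers 3 of 4, from 0.017 to 0.11, and fibroblast markers 0 of 2. The part of any admixture in the metallothionein differences was not tested.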

How the data were processed

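RNA of 2 treatments was measured on 1 Affymetrix array each. Per the labels, 5 µg of total RNA went into each labelled cRNA, and the series design text says that 3 samples were pooled. The authors deposited 1 value per transcript cluster on a scale that its range (0.37 to 14.20) places as log2; base 2 is assumed, and the sources used here do not give the background correction or normalization. Array medians were 5.59 and 5.62. Of 53617 clusters 16098 had exactly 1 gene symbol. The other 37519, with no symbol or with several, are called unnamed here. All 16098 gene identifiers matched RefSeq. A gene with several clusters was represented by the one with the highest mean.

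No further scaling or filter was applied to the members. The calculation of medians was checked by recovering known shifts added to shuffled differences. Such a check covers the arithmetic and says nothing about error between arrays. All members were named; of each metal and stress list, the highest and lowest measured genes, and MTF1 always. Genes of the marker lists were named outside this rule, after their values were seen. Likeness of pattern was not ranked, since across 2 arrays any pair of genes correlates at 1 or -1. Members and lists were chosen with earlier results of these data known. Alternatives were 3 scalings, 3 level filters, cluster averaging, other fold thresholds and the lists with no filter. Promoter cores were counted with overlaps allowed. Cyclic loess was run with limma 3.58.1 in R 4.3.3, and the rest in Python 3.11.15 (numpy 2.4.6, pandas 2.3.3, matplotlib 3.10.9). The number of arrays limits the precision.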

Additional observations from a re-analysis of the deposited data

How the results depend on the processing

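A median counts as moved here past 0.05, a count past 1.5 times and a single gene past 1 robust SD of its level bin. Over the 3 scalings the metallothionein median ran from -0.24 to -0.17, with 9 or 10 genes lower and 5 lower past 0.32. Of the values of the 11 members and MTF1, MT4 turned sign (-0.021 after median centring) and the other 35 stayed; MTF2, outside this tally, also turned (0.012 and 0.015 after quantile normalization and loess). With the higher array, or both arrays, at or above the 50th percentile of level, 6 members remained, with a median of -0.16. Of these, 5 were lower and 2 lower past 0.32. Among all named genes with the higher array at that level, 57.2% were lower and 5.27% lower past 0.32. At the 75th percentile 5 members remained, with 4 lower and 2 past 0.32, and the share over all genes was not computed. These counts fell because fewer genes entered. As deposited, 2 members were lower past 1.5-fold and 0 past 2-fold. Every member has 1 cluster, so averaging clusters could not change a value. Adding symbols that go on after the letter was not run, because 0 named clusters carry one. After quantile normalization and cyclic loess respectively, medians were -0.015 and -0.015 for chromosome 16 neighbours, -0.035 and -0.030 for metal-responsive transcription, 0.053 and 0.054 for NRF2 targets and 0.020 and 0.027 for heat shock genes; for copper handling the first was -0.0765. Glucocorticoid targets turned to -0.0046 after centring and to -0.0076 with all named members. Beyond the filters and thresholds, the cause was not tested. No paired analysis was possible because the groups hold 1 array each. Low signal limits the values of the 5 members below the entry level.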

Other observations

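Cluster numbers of 10 members follow each other in the order of their RefSeq positions. Inside this run 5 unnamed clusters are numbered, meaning clusters with no gene symbol or with several. No gene name was assigned to them. The brightest of the 4 numbered between MT1M and MT1B was at 12.35 with the antagomir and 12.04 with compound 1, a difference of -0.316. Another was at 8.84 and 8.54 (-0.30), 1 more at 5.86 and 5.76 (-0.10) and the dimmest, below the entry level, at 4.03 and 4.11 (0.088). The 1 numbered between MT1H and MT1X was at 5.78 and 5.88 (0.10). Of the 5, 3 were lower on the compound 1 array, and these include the 2 with the highest signal. That count is near the 51.5% of all named genes that were lower. None of the 5 passed a log2 difference of 0.32.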
